A study of Mus musculus with 20 samples.

Results

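The mouse mitochondrial genome encodes 37 genes: 13 for proteins of the respiratory chain, 2 for the RNAs of the mitochondrial ribosome and 22 for tRNAs. All 37 were found among the 55416 genes of the count table, chosen as the rows whose Ensembl identifier has a symbol that begins with mt-. They were read in quadriceps muscle of wild-type male C57BL/6J mice aged 26 to 28 months, collected 3 h after 1 intramuscular injection of 50 µL. The 10 control mice received 0.9% saline, and the 10 secretome-treated mice received a cell-free product released by partly differentiated human pluripotent stem cells. All mice were fasted for 4 h, and 1 library of total RNA depleted of ribosomal RNA was made per mouse. The labels number the libraries 1 to 10 (controls) and 11 to 20 (secretome-treated), and a mouse is named here by its treatment and its replicate number within it.

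Both strands of the circular mitochondrial DNA are transcribed as long precursors. tRNAs stand between most of the protein and rRNA genes, and cutting them out releases the mature RNAs on either side. One strand's transcript (here called heavy-strand) carries both rRNAs, 12 of the 13 protein genes and 14 tRNAs, and the other (light-strand) carries mt-Nd6 and 8 tRNAs. Because the genes of a precursor start as 1 molecule, differences among their steady levels reflect processing and decay as well as synthesis. The proteins are subunits of complex I (the mt-Nd genes), complex III (mt-Cytb), complex IV (mt-Co1, mt-Co2 and mt-Co3) and the ATP synthase, complex V (mt-Atp6 and mt-Atp8). Muscle fibres depend on them for oxidative phosphorylation. In bulk tissue, fewer mitochondria or fibres cannot be told apart from less RNA in each.

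Several of these genes have near-identical copies in the nuclear genome, which bear on how their counts can be read. The first 120 bases of mt-Co2 are shown with those of its copies Gm28661 and Gm13341, and the first 43 bases of mt-Nd3 with those of its copy Gm28438, because they show how little separates them. Capitals mark bases that differ, and the sequences are GENCODE M21 transcripts.
mt-Co2: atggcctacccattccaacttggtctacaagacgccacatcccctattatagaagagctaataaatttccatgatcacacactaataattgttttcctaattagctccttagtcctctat
Gm28661: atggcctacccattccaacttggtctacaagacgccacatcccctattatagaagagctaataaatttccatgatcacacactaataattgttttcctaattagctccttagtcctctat
Gm13341: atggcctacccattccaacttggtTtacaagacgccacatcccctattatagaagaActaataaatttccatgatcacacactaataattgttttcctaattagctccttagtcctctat
mt-Nd3: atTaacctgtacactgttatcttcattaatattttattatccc
Gm28438: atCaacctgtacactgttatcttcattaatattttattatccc
Counted from the gene's first base, Gm13341 differs from mt-Co2 in this stretch by C25T and G57A, and Gm28438 differs from mt-Nd3 by T3C. Over their whole matched length, Gm28661 was 100% identical to mt-Co2 and Gm13341 was 95.9% identical.

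Of the 15 protein and rRNA genes, 9 had an annotated nuclear copy of at least 95% identity over at least 100 bases. Gm28661, Gm10925, Gm28437, Gm28438, Gm10222 and Gm28439 match mt-Co2, mt-Atp6, mt-Co3, mt-Nd3, mt-Nd4l and the first 876 bases of mt-Nd4, and all 6 copies are on chromosome 1. The share of 150-base stretches, the length of 1 read, that occurs unchanged in a nuclear transcript was 99.4% for mt-Co2 and for mt-Atp6, 99.8% for mt-Co3, 97.0% for mt-Nd3 and 98.0% for mt-Nd4l. It was 59.2% for mt-Nd4, 23.6% for mt-Co1 and 0% for the other protein and rRNA genes. mt-Atp8, which lies between mt-Co2 and mt-Atp6, has no annotated copy of its own in these transcripts. Nuclear sequence outside annotated transcripts was not searched, so 0% does not show that a gene's reads fit 1 place only.

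The levels per length differed along the genome. On the scale of CPM per kilobase, which is counts in a library scaled to 1000000 counted reads and divided by the gene's length in units of 1000 bases, mt-Co1 had the highest median over the 20 libraries, at 11746. mt-Nd1, mt-Cytb, mt-Nd2, mt-Nd5 and mt-Nd4 had medians of 6968, 6086, 5673, 4088 and 2329. mt-Co2, mt-Atp8, mt-Atp6, mt-Co3, mt-Nd3 and mt-Nd4l, which lie in 1 run of the genome, had medians between 17.1 (mt-Co3) and 31.4 (mt-Atp8). The highest value of any of these 6 genes in any library was 189 (mt-Atp8), below the lowest value of the other 6 heavy-strand protein genes, 200 (mt-Nd4 in control 9). How reads that fit 2 places were counted is not given in the sources used here, so the part of shared reads in these low values was not tested. The nuclear copies had median counts per library from 31.0 (Gm28438) to 858 (Gm13340, a copy of mt-Co1 on chromosome 2). The copy had the higher median for mt-Co2 (368, Gm28661 422.5), mt-Atp6 (343.5, Gm10925 598.5) and mt-Co3 (249, Gm28437 342.5). It had the lower one for mt-Nd3 (133.5, Gm28438 31.0) and mt-Nd4l (133, Gm10222 96.0).

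**Figure D1:**
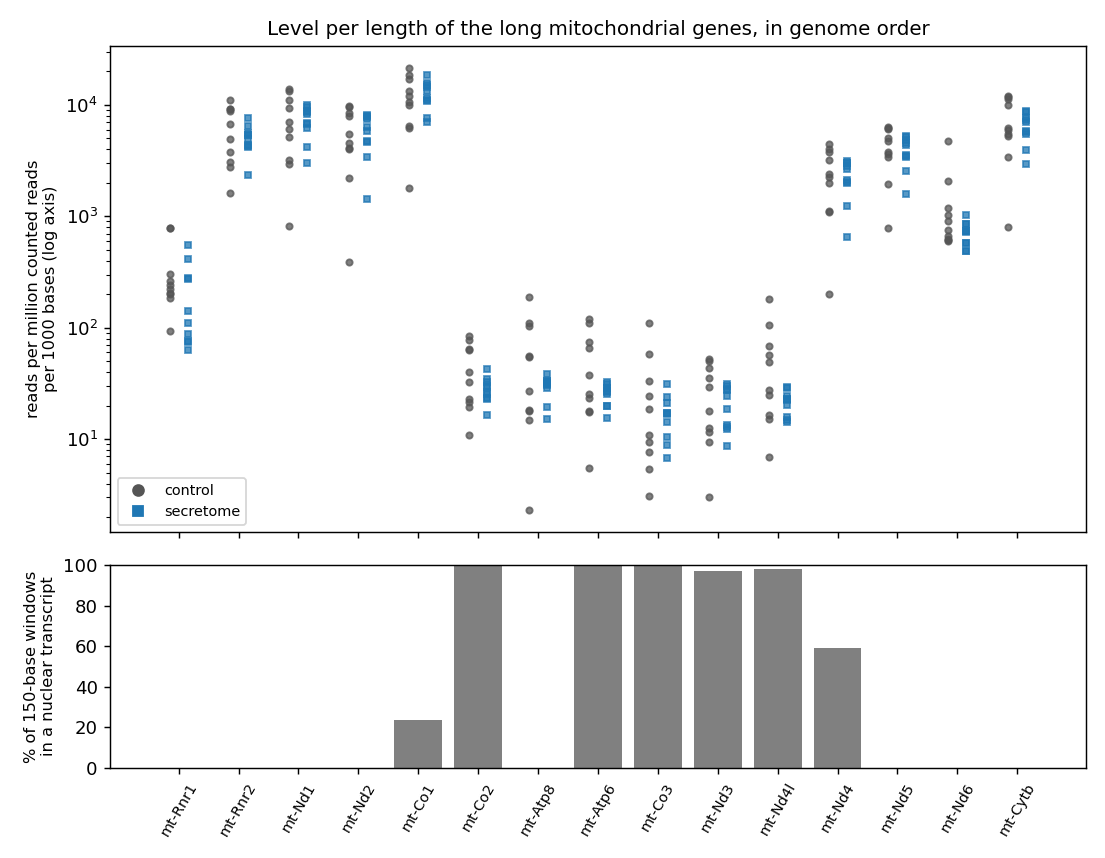
Upper panel, CPM per kilobase (reads scaled to 1000000 counted reads and 1000 bases, log axis) for the 15 protein and rRNA genes in the order of the mitochondrial genome, 1 point per library (grey circles, control; blue squares, secretome). Lower panel, percent of each gene's 150-base stretches found unchanged in a nuclear transcript. The run from mt-Co2 to mt-Nd4l lies below the other protein genes in every library.

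Both rRNAs come from 1 part of the heavy-strand transcript, yet mt-Rnr2, the large-subunit rRNA, had a median of 5186 on the same scale and mt-Rnr1, the small-subunit rRNA, 214. The libraries were depleted of rRNA, and how far each rRNA was removed was not measured, so their levels do not give their amounts in the tissue.

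The tRNAs were barely captured. Their genes are 59 to 75 bases long, shorter than 1 read of 150 bases, and the 22 together took 0.00118% to 0.00864% of a library. The most and the least counted are shown with mt-Tl1, which had the largest negative difference between libraries 16 to 20 and 1 to 5 among the tRNAs.
mt-Tw: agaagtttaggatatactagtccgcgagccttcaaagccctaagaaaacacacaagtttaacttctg
mt-Tl1: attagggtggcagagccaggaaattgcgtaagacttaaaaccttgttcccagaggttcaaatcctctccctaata
mt-Tf: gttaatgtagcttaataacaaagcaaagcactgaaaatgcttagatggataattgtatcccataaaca
mt-Tw, the tRNA for tryptophan, had 9277 counts over all libraries. mt-Tl1 (leucine) had 2257, mt-Ti (isoleucine) 1616, mt-Tm (methionine) 1559 and mt-Tq (glutamine) 1127. mt-Tf (phenylalanine) had no count in any of the 20 libraries. For counted reads this allows up to 0.131 CPM in the deepest and 0.226 in the shallowest library (3 counts, counting error only). It sets no limit on the tRNA in the tissue, since how far each tRNA was captured was not measured. mt-Ts1, mt-Td and mt-Tk had 1 count each over all libraries. Only 7 of the 22 tRNAs passed the filter on low counts in the fit of all libraries, 5 of the heavy-strand and 2 of the light-strand transcript.

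The libraries held between 13286983 and 22987237 counted reads. The 37 genes took 0.977% (control 9) to 10.3% (control 4) of a control library and 2.65% to 8.17% of a secretome library. Among other markers, Ttn, the giant sarcomere gene, took 7.02% to 11.03% in libraries 1 to 5, 16.4% to 21.1% in libraries 6 to 15 and 14.2% to 14.7% in libraries 16 to 20. Libraries 1 to 5 hold controls alone and libraries 16 to 20 secretome mice alone. Libraries 6 to 15 hold both, but 6 to 10 are all controls and 11 to 15 all secretome-treated. The treatment thus cannot be told apart from the library number in any of these ranges. The 3 ranges were chosen with earlier results of these data known. No source names a batch. Each comparison of the mitochondrial genes is therefore given over all libraries, within libraries 6 to 15, and for libraries 16 to 20 against 1 to 5.

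The 13 protein genes took 5.10 ± 2.61% of the counted reads in control muscle (mean ± SD, n = 10) and 5.02 ± 1.55% in secretome-treated muscle (n = 10). The difference of -0.0859 percentage points was smaller than either SD, and it turned from -0.575 without control 9 to 0.330 without control 4. In libraries 6 to 10, all controls, the share was 2.44%, 4.38%, 3.99%, 0.700% and 4.86%. In libraries 11 to 15, all secretome-treated, it was 4.38%, 4.64%, 3.05%, 6.14% and 5.70%. These groups overlapped, and their means differed by 1.51 percentage points, close to the SD within groups of 1.48. Without control 9 the difference was 0.867 percentage points. In libraries 1 to 5 the share was 8.17%, 3.60%, 6.86%, 8.85% and 7.18%, and in libraries 16 to 20 it was 7.09%, 4.46%, 5.89%, 2.26% and 6.56%. There the secretome mean was the lower one, by -1.68 percentage points, with an SD within groups of 1.98, and it was -0.934 without secretome 9.

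The rRNA share showed the same turn of sign. Over all libraries it was 0.999 ± 0.533% in controls and 0.821 ± 0.241% after secretome (SD, n = 10 each), a difference of -0.178 percentage points that was -0.0916 without control 1. In libraries 1 to 5 it lay between 1.15% and 1.78%, above all 5 values of libraries 16 to 20, 0.379% to 1.07%. Within libraries 6 to 15 the control values ran from 0.275% to 0.804% and the secretome values from 0.671% to 1.26%, and they overlapped. The tRNA share was also higher in libraries 1 to 5 (mean 0.00784%) than in 16 to 20 (0.00504%), and lower in libraries 6 to 10 (0.00294%) than in 11 to 15 (0.00421%). These shares are sums over the members and were not tested.

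**Figure D2:**
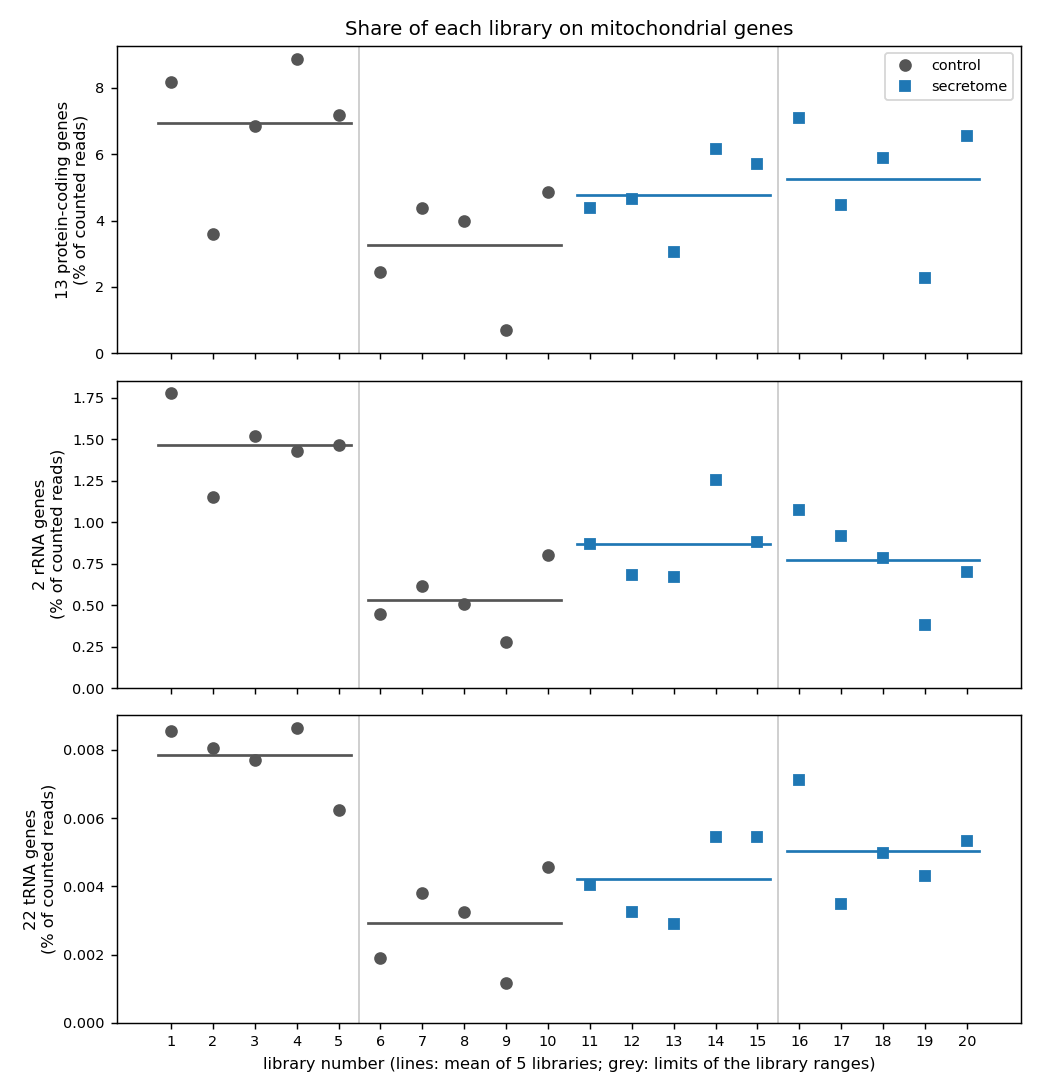
Percent of counted reads on the 13 protein, 2 rRNA and 22 tRNA genes (3 panels) against library number; grey circles are control and blue squares secretome libraries, horizontal lines are means of 5 libraries, and grey vertical lines part libraries 1 to 5, 6 to 15 and 16 to 20. The mean of control libraries 1 to 5 lies above both secretome means in each class, and the mean of control libraries 6 to 10 lies below both.

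The mix of the mitochondrial reads differed in a few libraries. mt-Nd6, the light-strand subunit of complex I, made up 6.89% of the protein-gene reads in control 2 and 5.57% in control 9, against 0.457% to 1.56% in the other 18 libraries. In control 2 mt-Nd6 itself was high, with 32969 counts against a median of 7370, and mt-Co1 had 133081 counts. In control 9 mt-Nd6 had 6628 counts and the heavy-strand genes were low, with mt-Co1 at 47139 counts against a median of 338660. The same libraries had the most rRNA reads per 100 protein-gene reads, 32.0 in control 2 and 39.3 in control 9, against 10.7 to 22.1 elsewhere. tRNA reads per 100000 protein-gene reads were 224 in control 2, 168 in control 9 and 190 in secretome 9, against 69.9 to 112 elsewhere. mt-Rnr1 made up 6.46% and 7.14% of the rRNA reads in control 2 and control 9, and 4.91% or less in the others.

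Short non-coding nuclear RNAs moved with this in part. The summed level of the 6 that have a row was 7419 CPM in control 2, 5916 in control 3 and 2792 in control 9, and 700.5 to 2353 in the others. The summed level of 8 markers of oxidative fibres, which are rich in mitochondria, was 1910 CPM in control 9 and 364 in control 6, the control libraries with the lowest mitochondrial shares (0.977% and 2.89%), and 3327 in control 4 and 747 in control 1, those with the highest (10.3% and 9.96%). The part of either in the mitochondrial levels was not tested.

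**Figure D3:**
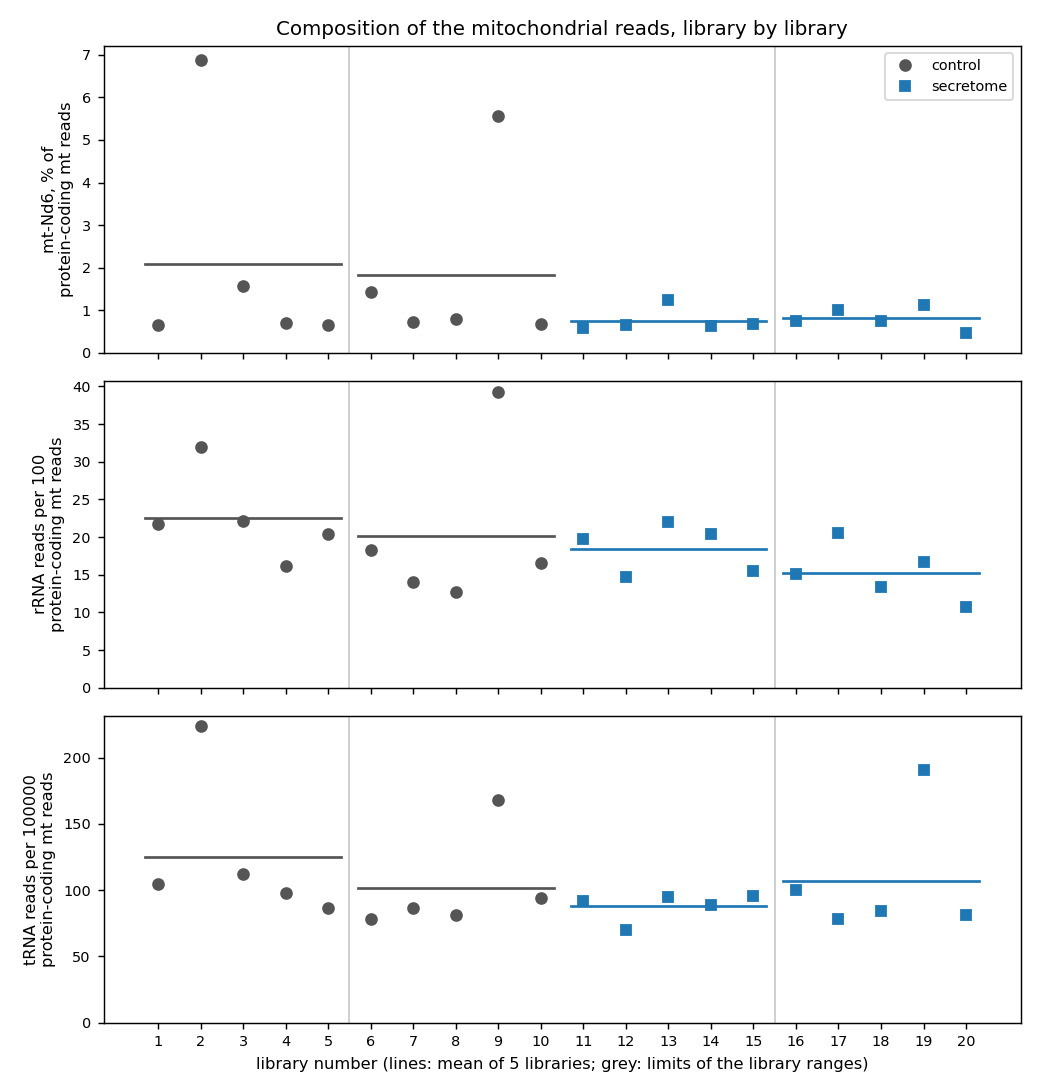
Ratios within the mitochondrial reads against library number: mt-Nd6 as percent of protein-gene reads, rRNA reads per 100 and tRNA reads per 100000 protein-gene reads; symbols and lines as in the plot of class shares. Control 2 and control 9 stand above the other libraries in the upper and middle panels, and control 2, control 9 and secretome 9 in the lower one.

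The question of the treatment was put to each gene with edgeR's quasi-likelihood test, fitted over every gene with enough counts and adjusted by Benjamini-Hochberg. Over all 20 libraries 0 of the 22 mitochondrial genes tested passed a 5% false discovery rate, against 1 of 14471 genes (0.00691%). With DESeq2 the counts were 0 mitochondrial genes and 213 genes (1.18%). At an unadjusted p under 0.05 there were 3 mitochondrial genes, all lower after secretome, where 9.21% of all genes were lower at that level. The log2 fold change was above 0 for 9 of the 22, against 44.1% of all genes.

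Those 3 were mt-Nd4l, mt-Tl1 and mt-Nd6. Levels of single genes from here on are CPM scaled by TMM, which do not take length into account. mt-Nd4l, a complex I subunit whose gene overlaps mt-Nd4, had 1.94, 10.9 and 47.2 CPM as lowest, median and highest control value and 4.38, 6.46 and 9.61 in secretome-treated muscle. None of the 10 secretome values lay above the control median, but all lay within the control range (log2 fold change -1.15 ± 0.40 SE, unadjusted p = 0.00919, adjusted p = 0.2, edgeR). mt-Tl1 had 2.28, 4.86 and 22.6 CPM in the saline group and 1.77, 4.04 and 5.81 after secretome (log2 fold change -1.07 ± 0.41, unadjusted p = 0.0153, adjusted p = 0.226, edgeR). Its high values were those of controls 1, 2 and 3.

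mt-Nd6 had 339, 397 and 2048 CPM in the saline group and 276, 391 and 563 after secretome, so the medians were close and the highest control stood far above the rest. Its log2 fold change was -0.70 ± 0.30 (unadjusted p = 0.028, adjusted p = 0.267, edgeR). Without control 2 it was -0.28, and without controls 2 and 9 together -0.31 with adjusted p = 0.515 (edgeR). Relative to the summed heavy-strand protein genes, mt-Nd6 was at -1.38 ± 0.48 with adjusted p = 0.17 (edgeR). On that scale the median of the 22 mitochondrial genes tested was -0.325. The 12 heavy-strand protein genes form the scale and are among the 22, so this median is in part set by the scale. Controls 2 and 9 had mt-Nd6 at 6.89% and 5.57% of the protein-gene reads, against 0.457% to 1.56% elsewhere. No fit on that scale was run without these controls.

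The other complex I genes lay between -0.18 (mt-Nd3) and 0.18 (mt-Nd2) on the log2 scale, with adjusted p from 0.833 to 0.98. mt-Cytb of complex III was at -0.04 ± 0.31 (SE). In complex IV, mt-Co1, the catalytic subunit, had 2616, 17750 and 28070 CPM as lowest, median and highest control value and 11700, 20410 and 30320 in secretome-treated muscle (log2 fold change 0.23 ± 0.29). mt-Co2 was at -0.45 ± 0.28 and mt-Co3 at -0.59 ± 0.51. The complex V genes mt-Atp8 and mt-Atp6, which overlap each other, were at -0.81 ± 0.46 and -0.79 ± 0.38. The 6 genes of the low run thus all had negative estimates, while mt-Co1, mt-Nd1, mt-Nd2, mt-Nd4 and mt-Nd5 were between 0.02 and 0.23, and none of these passed the false discovery rate. The rRNAs were at -0.48 ± 0.43 (mt-Rnr1) and -0.11 ± 0.26 (mt-Rnr2).

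Within libraries 6 to 15, all 22 mitochondrial genes tested had a log2 fold change above 0, against 47.9% of 14469 genes. Among the ranges chosen here, this one alone holds both treatments. Its limits were set with earlier results of these data known, and no label gives them. 0 of the 22 passed a 5% false discovery rate in edgeR's test, as did 0 genes in all (0%). DESeq2 gave 0 of the mitochondrial genes and 37 genes (0.24%). At an unadjusted p under 0.05 there were 2, both higher, where 5.02% of all genes were higher at that level. The log2 fold changes of the 22 genes ran from 0.03 (mt-Nd6) to 0.95 (mt-Atp8), with a median of 0.49, beside -0.014 over all genes. Genes of 1 genome share their template and their libraries, so the 22 signs are not separate observations. In none of the 22 genes were the groups apart, where 1.91% of all genes did not overlap.

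The 2 genes were mt-Rnr2 and mt-Atp8. mt-Rnr2 had 4681, 6392, 5482, 2411 and 8223 CPM in controls 6 to 10 and 9256, 7162, 6577, 12720 and 9140 in secretome 1 to 5. All 5 secretome values lay above the control median, and the highest control lay above 2 of them (log2 fold change 0.73 ± 0.28 SE, unadjusted p = 0.0232, adjusted p = 0.468, edgeR). mt-Atp8 had 3.20, 3.98, 4.10, 0.444 and 5.75 CPM in those controls and 7.35, 4.19, 6.79, 8.30 and 6.77 in those secretome libraries. Only secretome 2 lay within the control range (log2 fold change 0.95 ± 0.42, unadjusted p = 0.0453, adjusted p = 0.498, edgeR).

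By role, the 7 complex I genes lay between 0.03 (mt-Nd6) and 0.84 (mt-Nd3) in these libraries, with a median of 0.48. mt-Nd1 had 3280, 6301, 5549, 736 and 7001 CPM in controls 6 to 10 and 6395, 6853, 3986, 8939 and 8551 in secretome 1 to 5, and 4 of the 5 secretome values lay above the control median (log2 fold change 0.61 ± 0.50 SE). mt-Nd6 had 371, 340, 352, 368 and 339 CPM in those controls and 276, 318, 375, 406 and 412 in those secretome libraries, so its controls, control 9 among them, lay within a narrow range. mt-Cytb was at 0.46 ± 0.47, and the complex IV genes were at 0.51 ± 0.44 (mt-Co1), 0.23 ± 0.27 (mt-Co2) and 0.84 ± 0.50 (mt-Co3). For mt-Co1 the controls had 10333, 17608, 17284, 2616 and 19261 CPM and the secretome libraries 18376, 19052, 11701, 23575 and 22181. Secretome 3 was the lowest of its group for mt-Co1 and mt-Nd1, and control 9 lay below every other library for both. The heavy-strand tRNAs tested ran from 0.29 (mt-Tl1) to 0.88 (mt-Tt), and the light-strand mt-Tq and mt-Tp were at 0.58 and 0.13.

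Control 9, the library with the lowest mitochondrial share, is 1 of the 5 controls here. Without control 9, mt-Nd4l turned to -0.12 and the median of the 22 genes was 0.29. In that fit mt-Rnr2 was at 0.55 with adjusted p = 0.542 and mt-Atp8 at 0.66 with adjusted p = 0.492 (edgeR). Markers of oxidative fibres moved the other way in these libraries: all 8 had log2 fold changes below 0, with a median of -2.59, and 2 were lower at an unadjusted p under 0.05. Their summed level was 364 to 3060 CPM in controls 6 to 10 and 629 to 1464 in secretome 1 to 5. Some markers of other cells were lower after secretome here, 5 of 7 macrophage markers, 3 of 7 adipocyte markers and 1 of 5 endothelial markers at an unadjusted p under 0.05, with medians of -0.902, -0.489 and -0.248, where 4.92% of all genes were lower at that level, and 0 past the false discovery rate (edgeR). The summed macrophage markers were 39.9 to 119 CPM in controls 6 to 10 and 35.9 to 44.1 in secretome 1 to 5, and the summed adipocyte markers 113 to 183 and 56.4 to 129. The part of these markers in the mitochondrial values was not tested.

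Libraries 16 to 20 against 1 to 5 went in the opposite direction. Of 23 mitochondrial genes tested, 4 had a log2 fold change above 0, against 44.2% of 14667 genes. 0 passed a 5% false discovery rate with edgeR, as did 0 genes in all (0%), while DESeq2 called 6 mitochondrial genes and 512 genes (3.47%), all 6 lower: mt-Tl1, mt-Tm, mt-Co2, mt-Atp8, mt-Atp6 and mt-Nd4l. At an unadjusted p under 0.05 in edgeR 11 were lower, where 9.56% of all genes were, and 1 was higher, mt-Tp, where 6.53% were. In 3 genes, mt-Nd4l, mt-Atp8 and mt-Tm, the groups did not overlap and the secretome group was lower, where 2.39% of all genes showed that.

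mt-Nd4l had 19.5, 26.1, 47.2, 14.4 and 13.1 CPM in controls 1 to 5 and 9.11, 6.49, 6.33, 4.64 and 9.61 in secretome 6 to 10 (log2 fold change -1.73 ± 0.34 SE, adjusted p = 0.103, edgeR). mt-Atp8 had 21.7, 17.3, 33.7, 9.45 and 10.1 CPM in those controls and 6.80, 5.72, 6.24, 3.40 and 7.03 in those secretome libraries (-1.66 ± 0.33, adjusted p = 0.103, edgeR). mt-Tm had 7.37, 12.1, 11.6, 7.23 and 5.78 CPM against 4.99, 2.20, 2.79, 3.40 and 5.15 (-1.25 ± 0.28, adjusted p = 0.104, edgeR). Controls 1, 2 and 3 were the 3 highest for mt-Nd4l and mt-Atp8, and each secretome value lay below every control. mt-Co1, next to the low run, was at 0.03 ± 0.33 and mt-Nd1 at -0.20 ± 0.40, while the 6 genes of the low run lay between -1.73 (mt-Nd4l) and -0.74 (mt-Nd3). Without control 2, mt-Co3 was also lower at an unadjusted p under 0.05 (p = 0.01, edgeR) and mt-Ti no longer was (p = 0.0576, edgeR). In that fit mt-Nd6 went from -1.14 to -0.54. The 8 markers of oxidative fibres were all above 0 here, with a median log2 fold change of 0.70, and the summed short non-coding RNAs were 1502 to 7419 CPM in controls 1 to 5 and 700.5 to 1844 in secretome 6 to 10. Of 5 giant mRNAs, 3 were higher at an unadjusted p under 0.05, where 6.53% of all genes were. All 5 were above 0, with a median of 0.618. Among 4 nuclear-retained RNAs 1 was lower at that level, where 9.56% of all genes were. Of the cell markers, 1 of 7 macrophage markers was lower at that level, and 2 of 8 muscle-fibre markers were higher and 1 was lower. Their part in the mitochondrial values was not tested.

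The tRNA estimates differed in sign in this comparison. Of the 6 heavy-strand tRNAs tested, mt-Tl1, mt-Ti, mt-Tm and mt-Tr were lower at an unadjusted p under 0.05, at -1.66, -0.59, -1.25 and -1.45 on the log2 scale, and mt-Tw, the most counted, was at 0.01 ± 0.30 (SE). The light-strand mt-Tp and mt-Tq were at 1.14 ± 0.47 and 0.41 ± 0.31. mt-Tp, for proline, had 1.01, 0.497, 0.225, 1.17 and 1.25 CPM in controls 1 to 5 and 3.07, 1.82, 2.32, 0.756 and 1.29 in secretome 6 to 10, and the groups overlapped (adjusted p = 0.261, edgeR). Its counts ran from 4 to 56 in a library. No test compared the strands. Without a stated strand setting, reads of a light-strand gene cannot be told apart from those of the heavy-strand transcript opposite to it.

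For mt-Tl1 the controls 1 to 5 had 16.9, 17.7, 22.6, 7.88 and 5.78 CPM and secretome 6 to 10 had 5.81, 4.46, 3.03, 3.62 and 5.45 (adjusted p = 0.103, edgeR). Controls 1, 2 and 3 stood apart, and control 5 lay just under the highest secretome value. mt-Rnr2 had 16817, 8889, 12616, 11884 and 12932 CPM in those controls and 10865, 8646, 7269, 4128 and 7728 in those secretome libraries, with 1 secretome value above the lowest control (log2 fold change -0.71 ± 0.24 SE, adjusted p = 0.199, edgeR). mt-Nd6 had 508, 2048, 935, 524 and 423 CPM against 563, 433, 418, 280 and 334 (-1.14 ± 0.41, adjusted p = 0.209, edgeR). Control 2 was the lowest control for mt-Rnr2 and the highest for mt-Nd6.

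The nuclear copies also had estimates below 0 in libraries 16 to 20 against 1 to 5. Gm28661 was at -0.86 ± 0.18, Gm10222 at -1.37 ± 0.30, Gm28438 at -1.31 ± 0.27 and Gm13341 at -1.56 ± 0.26 on the log2 scale, beside -0.83 for mt-Co2, -0.74 for mt-Nd3 and -1.73 for mt-Nd4l. Gm10925 was at -0.99 ± 0.35 beside -1.41 for mt-Atp6, and Gm28437 at -1.10 ± 0.40 beside -1.38 for mt-Co3. In the low run, Gm28661, Gm28438 and Gm13341 thus had lower estimates than the gene, and Gm10222, Gm10925 and Gm28437 higher ones. Copies of genes outside the low run had lower estimates than the gene: Gm13340 was at -1.17 ± 0.20 and Gm29216 at -0.87 ± 0.26 beside 0.03 for mt-Co1, Gm28439 at -1.31 ± 0.27 beside -0.30 for mt-Nd4, Gm13339 at -1.997 ± 0.36 beside -0.28 for mt-Nd2, and Gm4076 at -1.02 ± 0.28 beside -0.29 for mt-Nd5. None of the copies passed the false discovery rate there, and the differences between copy and gene were not tested. Within libraries 6 to 15, Gm28661 was at 0.19 and mt-Co2 at 0.23. Where copy and gene are identical, as Gm28661 and mt-Co2 are, their reads cannot be told apart by sequence.

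**Figure D4:**
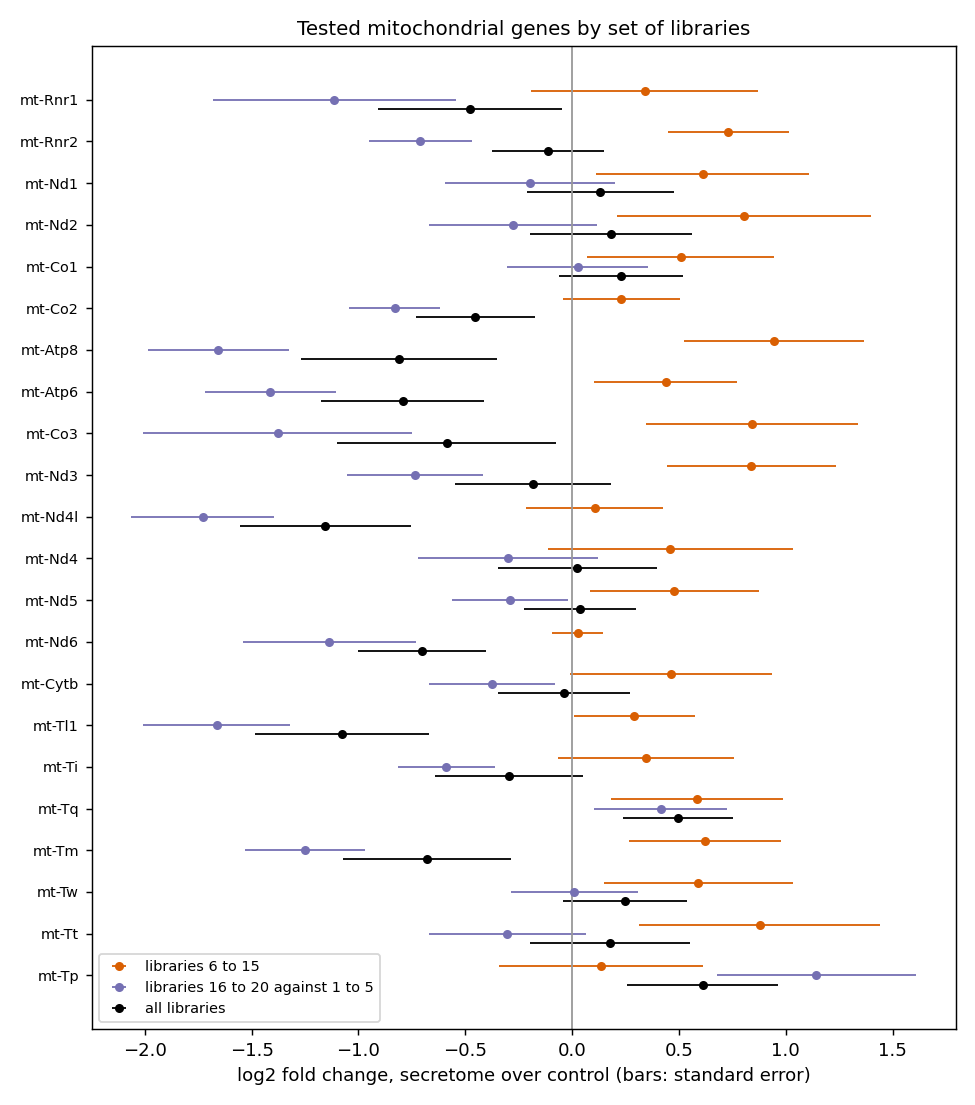
Log2 fold change of secretome over control with its standard error for the 22 mitochondrial genes tested in all libraries, in all libraries (black), libraries 6 to 15 (orange) and libraries 16 to 20 against 1 to 5 (purple). All orange points lie above 0, while most purple points lie below, furthest for mt-Nd4l, mt-Tl1 and mt-Atp8.

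The difference between these 2 effects was also fitted. It is the effect within libraries 6 to 15 minus that of libraries 16 to 20 against 1 to 5. The ranges were chosen with earlier results of these data known, so its counts and p-values are no separate test of the split. Genes of 1 genome are not separate observations here either. Of 24 mitochondrial genes, 23 had a difference above 0, against 51.6% of 15527 genes, and 11 had an unadjusted p under 0.05, all higher, where 5.44% of all genes were. With edgeR, 0 of the 24 and 7 genes (0.0451%) passed a 5% false discovery rate, and with DESeq2 6 and 180 (1.39%). The largest difference was in mt-Atp8 (log2 2.59 ± 0.58 SE, adjusted p = 0.146, edgeR), followed by mt-Co3 (2.20 ± 0.87) and mt-Tl1 (1.93 ± 0.47). Among the nuclear copies Gm13341 passed, at 2.01 ± 0.36 with adjusted p = 0.0472 (edgeR).

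Nuclear genes that make and use mitochondrial RNA had 0 genes past the false discovery rate over all libraries in edgeR's test. Of those for mitochondrial transcription and replication, 20 were tested and 0 had an unadjusted p under 0.05. Their median log2 fold change was -0.002, beside -0.035 over all genes. Tfam, which packages mitochondrial DNA and starts its transcription, had 23.7 ± 4.70 CPM in the saline group and 27.2 ± 2.04 after secretome (SD, n = 10 each; adjusted p = 0.319, edgeR). Lig3, the ligase of mitochondrial DNA, was at 0.15 ± 0.08 on the log2 scale. Within libraries 6 to 15 Tfam was at 0.02 and Lig3 at 0.05, and for libraries 16 to 20 against 1 to 5 they were at 0.41 and 0.27. Of 44 genes for RNA processing and decay, 6 were higher and 2 lower at an unadjusted p under 0.05, where 6.52% of all genes were higher and 9.21% lower over all libraries. Grsf1, a protein of the RNA granules where precursors are cut, had 75.2 ± 9.19 CPM in the saline group and 90.1 ± 7.46 after secretome (adjusted p = 0.158, edgeR), and Qtrt1, a tRNA-modifying enzyme, 6.01 ± 1.92 and 4.25 ± 0.54. Within libraries 6 to 15 Grsf1 was at 0.11 ± 0.08 and Qtrt1 at -0.32 ± 0.20 on the log2 scale, and for libraries 16 to 20 against 1 to 5 they were at 0.43 ± 0.13 and -0.65 ± 0.22.

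Of 23 mitochondrial tRNA synthetases, 2 were higher and 0 lower at that level over all libraries. Iars2, for isoleucine, was at 0.20 ± 0.09 on the log2 scale (SE), at 0.0051 within libraries 6 to 15 and at 0.43 for libraries 16 to 20 against 1 to 5. Of 78 nuclear subunits of the respiratory chain, 4 were higher and 9 lower, where 6.52% of all genes were higher and 9.21% lower. The median of the 78 was -0.078. The smallest p values were those of the complex IV subunits Cox6a1 (-1.13 ± 0.38 SE) and Cox6a2, the muscle form (-0.74 ± 0.25), and neither passed the false discovery rate (adjusted p = 0.193 and 0.195, edgeR). Within libraries 6 to 15 both were nearer 0, at -0.51 and -0.17, and for libraries 16 to 20 against 1 to 5 they were at -1.48 and -1.12. Of the 78 subunits, 0 were higher and 1 lower at an unadjusted p under 0.05 within libraries 6 to 15. The shares of all genes there were 5.02% and 4.92%. For libraries 16 to 20 against 1 to 5, 8 were higher and 16 lower, where 6.53% of all genes were higher and 9.56% lower. None of the nuclear genes named passed the false discovery rate in either range (edgeR).

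Markers of other cells and of RNA quality stood as follows over all libraries, with 0 genes past the false discovery rate in any list (edgeR). The muscle-fibre markers were present in every library, with a summed level of 91047 to 123590 CPM. At an unadjusted p under 0.05, 4 of 7 macrophage markers and 2 of 7 adipocyte markers were lower after secretome, where 9.21% of all genes were. The median log2 fold changes of these lists were -0.736 and -0.676, beside -0.035 over all genes. 1 of 8 muscle-fibre markers was lower at that level, and none of the 5 blood-cell, 5 endothelial or 3 tested neutrophil markers was past it. Of 5 markers of brown fat and heart 1 had enough counts to be tested. Among the signs of RNA quality over all libraries, 4 nuclear-retained RNAs and 5 giant mRNAs had 0 genes at that level, and 1 of 2 tested short non-coding RNAs was lower. The part of these in the mitochondrial values was not tested.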

How the data were processed

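Quadriceps RNA of 20 mice was sequenced by the study from stranded, rRNA-depleted libraries in pairs of 150 bases. The authors deposited whole-number counts of reads per gene without normalization. The submitters' processing notes name cutadapt 1.16, STAR 2.7.9a, featureCounts 1.6.3, DESeq2 1.34.0 and the build GRCm39 (mm39). The strand setting and the treatment of reads with several matches are not given in the sources used here, so mt-Nd6 and the transcript opposite to it, and genes and their nuclear copies, may share reads. Groups came from the sample labels. Nothing says how mice were allotted to library numbers, and p-values measure the spread between these mice.

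Symbols came from the gene name table supplied with the Ensembl identifiers, which named 52083 of 55416 genes, at least 98.6% of each library's counts. Transcripts of GENCODE M21, which rests on an earlier build than the counts, gave sequences, lengths and copies (blastn 2.17.0, at least 95% identity over 100 bases). No coordinates are given for that reason. Levels per length are CPM divided by length in kilobases.

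Counts were fitted over all genes with edgeR 4.0.16 in R 4.3.3 (filterByExpr, TMM, robust quasi-likelihood F-test, treatment as the only term) with p-values adjusted by Benjamini-Hochberg and read at a 5% false discovery rate, in all libraries, in libraries 6 to 15, in libraries 16 to 20 against 1 to 5, and for the difference of the last 2 effects. The procedure was tested on simulated data. Standard errors were derived from each log2 fold change and its F statistic. Alternatives were DESeq2 1.42.0, voom of limma 3.58.1 with quality weights, RLE size factors, no filter, size factors without the mitochondrial genes or from the heavy-strand protein genes, a term for the 3 library ranges, a replicate block, other denominators of the shares, and each library left out. The removal of controls 2 and 9 together was added after seeing the data. Named genes were all 37 mitochondrial genes, their nuclear copies, and, from each nuclear list, the 2 with the lowest p over all libraries, of which 1 is not reported here. The members, lists and library ranges were chosen with earlier results of these data known. With counts of 13286983 to 22987237 per library, a tRNA with 1 count is at the limit of detection. Comparisons reported by the study were not used.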

Additional observations from a re-analysis of the deposited data

Results flagged for a closer look

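In 31 measures of the mitochondrial genes, each in both treatment groups, the lowest or highest of 10 libraries was compared with its nearest neighbour by Dixon's criterion, which flags about 1 in 20 groups by chance, or 3.1 of the 62 groups here. It marked 8. Of these, 6 were the lowest control value and all in control 9: on the log2 CPM scale mt-Nd2 at 8.57 (next lowest control 11.25), mt-Co1 at 11.4 (13.01), mt-Nd4 at 8.02 (10.28), mt-Nd5 at 10.4 (11.88), mt-Cytb at 9.76 (12.03) and the tRNA for threonine, mt-Tt, at -4.17 (-0.97). These genes share 1 transcript and 1 library, so the 6 flags are not separate. mt-Nd6 of control 9 was not among them.

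The other 2 were the highest secretome values in secretome 9: 190 tRNA reads per 100000 protein-gene reads, where the next highest was 100.3, and 47.6% of the protein-gene reads on mt-Co1, where the next highest was 40.65%. Control 2, whose mt-Nd6 share was 6.89%, was not marked, because control 9 lay near it on that measure.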

How the results depend on the processing

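The count of mitochondrial genes past a 5% false discovery rate was 0 over all libraries and within libraries 6 to 15 under every alternative run. DESeq2 gave 6 for libraries 16 to 20 against 1 to 5 and 6 for the difference of the 2 effects, where edgeR gave 0. Over all genes the count, 1 in edgeR, was 213 with DESeq2, 3 with voom, 0 with the replicate block, 0 with the term for the 3 library ranges, and 0 to 15 with 1 library left out: 15 without control 5, and 0 without control 6 or 9 or without secretome 1, 4, 5, 6 or 7.

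Estimates that changed sign were all short of the threshold. With the term for library ranges, 13 log2 fold changes turned positive over all libraries: mt-Rnr1 0.33, mt-Rnr2 0.72, mt-Tl1 0.28, mt-Ti 0.34, mt-Tm 0.61, mt-Co2 0.22, mt-Atp8 0.94, mt-Atp6 0.43, mt-Co3 0.83, mt-Nd3 0.83, mt-Nd6 0.014, mt-Cytb 0.45 and mt-Nd4l 0.10. That fit draws the treatment effect from libraries 6 to 15 alone. With voom, mt-Rnr2 (0.13), mt-Atp8 (0.054), mt-Nd3 (0.16) and mt-Cytb (0.10) turned positive. With the replicate block they were mt-Rnr2 (0.021), mt-Co3 (0.0027), mt-Nd3 (0.021) and mt-Cytb (0.15). Relative to the heavy-strand protein genes, mt-Nd4 (-0.058), mt-Nd5 (-0.21) and mt-Tp (-0.0098) turned negative. Without controls 2 and 9, mt-Nd1 (-0.12), mt-Nd2 (-0.037), mt-Nd4 (-0.23) and mt-Nd5 (-0.10) did. The cause was not tested. With 1 library left out, the ranges of the log2 fold changes that crossed 0 were, over all libraries, -0.23 to 0.032 for mt-Rnr2, -0.0022 to 0.27 for mt-Nd1, -0.74 to 0.011 for mt-Co3, -0.12 to 0.14 for mt-Nd4, -0.086 to 0.13 for mt-Nd5 and -0.17 to 0.061 for mt-Cytb, and within libraries 6 to 15 -0.28 to 0.56 for mt-Rnr1, -0.021 to 0.63 for mt-Ti, -0.033 to 0.11 for mt-Nd6, -0.19 to 0.36 for mt-Tp and -0.12 to 0.30 for mt-Nd4l. No share difference of a class moved by more than its SD within groups, but that of the protein genes over all libraries changed sign (-0.575 to 0.330).

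Replicate numbers pair the samples only by name. Correlations of same-numbered libraries ran from -0.24 to 0.221, with 2 of 10 over 0.1. Counts of tRNA genes, and reads shared with nuclear copies, limit what these libraries can show.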
